A study of Mus musculus with 22 samples.

Results

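The 6 soleus libraries of WT male mice given T3 were compared with the 5 of WT male mice given vehicle, which are 11 of the 22 libraries of the series. These libraries were chosen by the labels for genotype and treatment alone. T3 is triiodothyronine, the active thyroid hormone. The other 11 libraries, labelled TRa1 KO for thyroid hormone receptor alpha 1, were 4 with vehicle and 7 with T3. They entered the comparison in WT through the filter on low counts, the scaling and the shared estimate of the spread. Their own T3 response is given for comparison. Poly-A RNA of the soleus, a postural muscle of the lower leg, was sequenced as read pairs. The labels give neither strain, age, dose, route nor duration of treatment, and the vehicle is not named. Nor do they say whether any animal gave more than 1 library. The p-values therefore refer to the variation among these libraries, which may in part be technical.

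Thyroid hormone enters muscle through membrane transporters, is activated or inactivated there by deiodinases and binds the nuclear receptors encoded by Thra and Thrb. These receptors sit on response elements in DNA and, on binding T3, release corepressors and recruit coactivators. In muscle the hormone is known for shifting fibres from slow to fast contractile proteins, for raising calcium cycling by the sarcoplasmic reticulum and for raising heat production.

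The WT vehicle libraries held 26336539 to 45184384 counts and the WT T3 libraries 14542548 to 40647589. Levels are given as CPM, the usual depth-scaled read count per gene, here with TMM-scaled library sizes. Each log2 fold change (T3 against vehicle) is followed by its standard error (SE). All 10 markers of soleus fibres, among them Acta1, Ckm, Mb, Myh7 and Tnnt1, were expressed, and their summed level was 66650 to 75680 CPM in vehicle and 48720 to 75430 CPM in T3 libraries. WT T3 replicate 5 lay apart at 96.05 on the first principal component of the WT libraries, which held 31.1% of the variance, where the others lay between -28.5 and 5.17. Its mitochondrial share of counts was 11.2%, and WT T3 replicates 1 and 3 had the highest shares, 29.5% and 29.3%. WT vehicle replicate 4 was the vehicle library nearest to the T3 side in 236 of the 499 called genes. Leave-one-out fits are the 11 fits that each left out 1 WT library, and the T3 libraries that lay apart are replicates 1, 3 and 5 of WT T3 with replicates 2 and 3 of KO T3. This set was fixed by hand, without a cutoff. Slopes of log2 level, relative to the mean of all libraries, on GC content (per 10 percentage points) were -0.359, -0.255, 0.359, -0.44 and -0.374 in this order. WT vehicle libraries had -0.099 to 0.206, the other WT T3 libraries -0.005 to 0.105, and KO T3 replicate 4, outside the set, 0.271.

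T3 changed 499 of 15082 tested genes in WT soleus (3.31%), 259 upwards (1.72%) and 240 downwards (1.59%), by edgeR's quasi-likelihood test with a Benjamini-Hochberg adjusted p below 0.05, which is what called means below. Among these were Hr, a corepressor of nuclear receptors, and Syt12, a synaptotagmin, which rose, and the calcium pump inhibitor Sln and the isocitrate dehydrogenase Idh2, which fell. At least 2-fold changes were found for 108 genes that rose and 77 that fell, and at least 4-fold changes for 38 and 16. The WT T3 and vehicle ranges did not overlap in 573 of all tested genes (3.8%), and in 344 of the called ones. These shares are the background for the counts of called members and of separate groups given for lists below. The lists were chosen with earlier results of these data known, so a count above these shares is not an independent test. The median log2 fold change of all genes was 0.01, and the median SE was 0.19. Most of the called genes were protein-coding (427), and 65 were long noncoding RNAs. Of the 1297 genes above 100 CPM, 59 were called. The count was 446 without the T3 libraries that lay apart, 291 in a fit on the 11 WT libraries only, and 284 without WT vehicle replicate 3, 305 without replicate 1, 314 without replicate 5 and 325 without replicate 2 of that group.

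**Figure D1:**
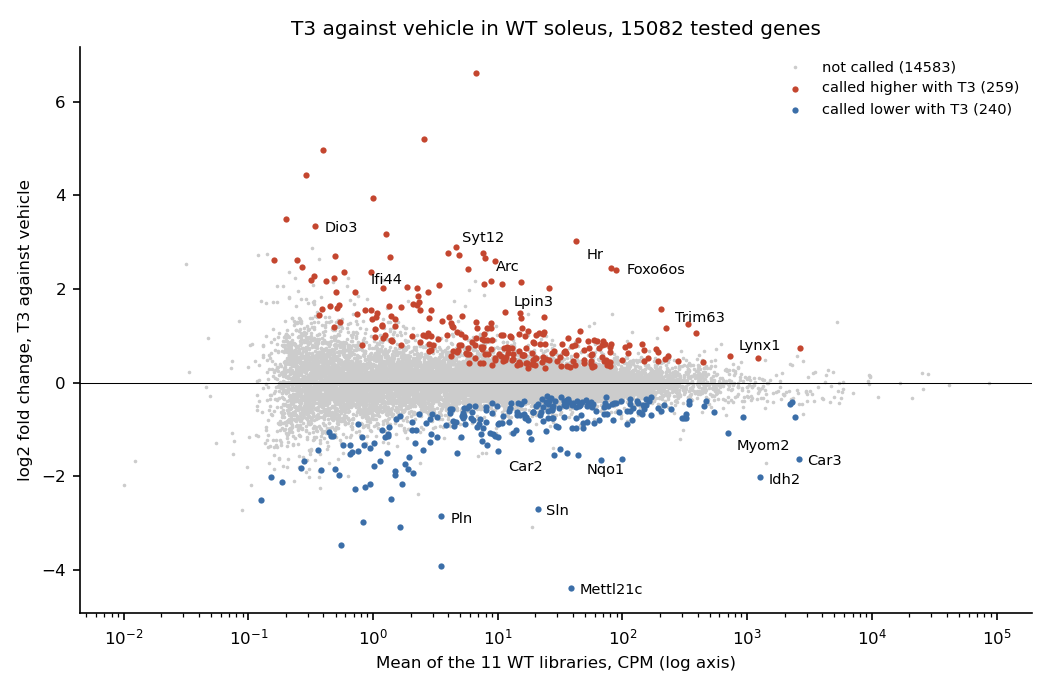
Fold change of each tested gene (vertical axis, log2, T3 against vehicle) against its mean level over the 11 WT libraries (horizontal axis, CPM, log scale), with 259 genes called higher in red and 240 called lower in blue. Mettl21c, Sln and Pln are among the labelled genes at the bottom, and Hr, Foxo6os and Syt12 are among the labelled genes at the top.

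Within the thyroid hormone system, Hr and the deiodinase gene Dio3 rose and the receptor gene Thra fell, while Thrb was not called. Hr (ENSMUSG00000022096, chr14:70552212-70572900, plus strand) stood at 10.7, 12.9, 16.5, 59.7 and 17.6 CPM in the 5 vehicle libraries and between 72.9 and 184 CPM (median 128) in the 6 T3 libraries. All T3 libraries lay above all vehicle libraries, and WT vehicle replicate 4 was the vehicle library nearest to them. Its log2 fold change was 2.46 ± 0.38 (adjusted p = 0.000384, edgeR). Dio3 (ENSMUSG00000075707, chr12:110279068-110280708, plus strand), which encodes the enzyme that inactivates T3 and T4, was barely detected under vehicle, with 8 counts in the 5 libraries, and had 98 counts over the 6 T3 libraries. As levels these were 0.0743, 0.0408, 0.0678, 0.0499 and 0.0316 CPM under vehicle and between 0.112 and 0.954 CPM (median 0.651) with T3, without overlap, WT T3 replicate 1 being the lowest of the treated libraries. The adjusted p was 0.000505 (edgeR), and the fitted log2 fold change of 3.35 ± 0.53 depends on the prior count, as so few counts lie under it. Its noncoding neighbour Dio3os, on the other strand, was called higher too, with 12 and 80 counts. The libraries were made with a stranded kit, but the strand setting of the counting is not given, so reads from such a pair may not be told apart. Thra (ENSMUSG00000058756, chr11:98740638-98768403, plus strand), the gene of TRa1 and of the non-binding isoform TRa2, was at 82.1, 71.9, 73.0, 90.6 and 70.8 CPM under vehicle and between 19.3 and 58.9 CPM (median 44.6) with T3, without overlap. Counts per gene do not separate those isoforms. Thra fell by 0.86 ± 0.20 on the log2 scale (adjusted p = 0.016, edgeR). The lowest value belonged to WT T3 replicate 1, and the adjusted p was 0.00383 without the T3 libraries that lay apart.

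Of 21 receptors and coregulators tested, Hr was the 1 called higher and Thra the 1 called lower, and the median log2 fold change was -0.13, or -0.02 when the T3 libraries apart were left out. Thrb, the gene of the other receptor, ranged from 33.9 to 44.9 CPM under vehicle and from 24.3 to 47.3 with T3, and its log2 fold change was near 0 (SE 0.17). Of 10 deiodinase and transporter genes Dio3 alone was called by edgeR. Dio2, which encodes the activating deiodinase, had a log2 fold change of 0.17 ± 0.27, and the transporter gene Slc16a10 (Mct10) had -0.03 ± 0.18. Among 13 genes that textbooks name as induced by T3 in one tissue or another, Hr was called and 11 had a positive log2 fold change, with a median of 0.33. Ucp3, an uncoupling protein found in muscle, was at 86.9, 86.5, 164, 143 and 147 CPM under vehicle and between 199 and 279.7 CPM (median 247) with T3. These ranges did not overlap, yet the model's adjusted p was 0.0989 for a log2 fold change of 0.96 ± 0.31. Klf9, a zinc-finger transcription factor, had 0.33 ± 0.12 (adjusted p = 0.149, edgeR), and Gpd2, the mitochondrial glycerol phosphate dehydrogenase, 0.49 ± 0.26 (adjusted p = 0.339). For Gpd2 the value of WT vehicle replicate 4, 50.9 CPM, exceeded every T3 library (highest 39.5), while the other vehicle libraries lay below all of them.

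**Figure D2:**
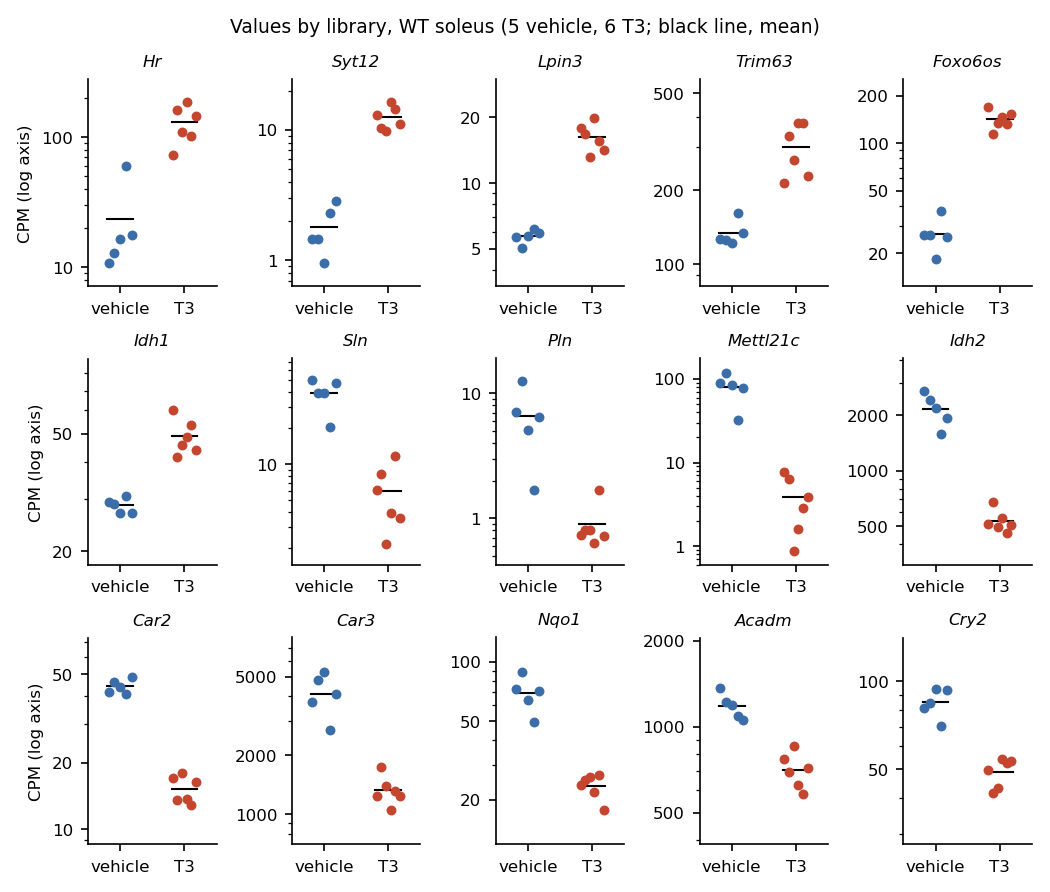
Level of 15 genes in each WT library (CPM, log axis; blue, 5 vehicle libraries; red, 6 T3 libraries; black line, mean). The groups are separate in each panel except that of Pln, where WT T3 replicate 5 at 1.68 CPM just exceeds WT vehicle replicate 4 at 1.67 CPM.

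Of 9 listed genes of the sarcoplasmic reticulum calcium pump and its inhibitors 6 were tested and 3 were not analysed here. The inhibitors Sln and Pln were called lower and neither Atp2a1 nor Atp2a2 was called, with 2 of the 6 positive, 4 negative and a median of -0.37 (-0.24 without the T3 libraries defined above as lying apart). Sln, sarcolipin (ENSMUSG00000042045, chr9:53850164-53854560, plus strand), was at 50.1, 38.7, 38.8, 20.2 and 46.7 CPM under vehicle and between 2.17 and 11.7 CPM (median 5.02) with T3, without overlap. It fell by 2.69 ± 0.33 on the log2 scale (adjusted p = 1.94e-05, edgeR). Pln, phospholamban (ENSMUSG00000038583, chr10:53337667-53345593, plus strand), was at 7.13, 12.7, 5.05, 1.67 and 6.45 CPM under vehicle and between 0.630 and 1.68 CPM (median 0.769) with T3. The groups met only where WT vehicle replicate 4 and WT T3 replicate 5 crossed, and Pln fell by 2.85 ± 0.45 (adjusted p = 0.00045, edgeR). Sln and Pln were called in each of the 11 leave-one-out fits. Atp2a1, the fast-fibre pump SERCA1, had a log2 fold change of 0.15 ± 0.21, and Atp2a2, the slow-fibre pump SERCA2, -0.22 ± 0.15. Of 27 genes of calcium release and storage 1 was called, Casq2, the calsequestrin of slow and cardiac fibres. Casq2 ranged from 253 to 503 CPM under vehicle and from 160.3 to 291 CPM with T3 and fell by 0.76 ± 0.18 (adjusted p = 0.0173, edgeR). Casq2 was not called without WT vehicle replicate 1 or 2 (adjusted p up to 0.0679), nor without the T3 libraries that lay apart (adjusted p = 0.097).

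Myosin heavy chains, the motor proteins that define fibre types, shifted in their proportions towards Myh1, the chain of type 2X fibres. Counts per length of Myh7 (type 1), Myh2 (2A), Myh1 (2X) and Myh4 (2B) were summed in each library and each chain was taken as a share of that sum. The Myh1 share was 7.22%, 11.2%, 16.9%, 18.4% and 20.9% in the vehicle libraries and between 29.4% and 44.5% (median 35.7%) in the T3 libraries. Each T3 library exceeded each vehicle library, and the difference was 21.5 percentage points. By a two-sided exact permutation test over 462 arrangements p was 0.00433, which is the least this design can reach, and the value adjusted over 6 shares was 0.026. Without WT vehicle replicate 1, 2, 3 or 5 the Myh1 groups were still separate, and the adjusted exact p was 0.0571. The Myh7 share was 29.7%, 36.8%, 25.3%, 14.8% and 28.9% under vehicle and between 12.8% and 22.5% (median 17.4%) with T3. The low vehicle value was that of WT vehicle replicate 4, so the groups overlapped, and the exact permutation p was 0.0303 (0.0909 adjusted). Without that library the Myh7 share was lower by 12.9 points with an adjusted exact p of 0.019. With any other WT library left out, the adjusted exact p for Myh7 was 0.0952 to 0.2.

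Myh2 remained the chain with the largest mean share, 47.9% ± 10.8 (SD, n = 5) under vehicle and 42.5% ± 6.62 (SD, n = 6) with T3, with an adjusted exact permutation p of 0.483. Myh4 took 10.1% ± 14.2 (SD, n = 5) under vehicle, of which WT vehicle replicate 4 had 34.3%, and 3.83% ± 2.61 (SD, n = 6) with T3. The Atp2a1 share of both pump genes was 66.3% ± 9.35 (SD, n = 5) and 72.8% ± 3.24 (SD, n = 6), with an adjusted exact permutation p of 0.294. Without WT vehicle replicate 4, whose share was 81.1%, the Atp2a1 difference was 10.2 points with an adjusted exact p of 0.019. With any other WT library left out, the adjusted exact p for Atp2a1 was 0.238 to 0.486. By count, Myh1 stood at 1132, 1591, 2790, 5092 and 3891 CPM under vehicle and between 5509 and 10330 CPM (median 6671) with T3, and its log2 fold change of 1.30 ± 0.37 was not called in the model (adjusted p = 0.0513, edgeR). In bulk RNA, fewer cells or nuclei of a type and less RNA per cell cannot be told apart.

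**Figure D3:**
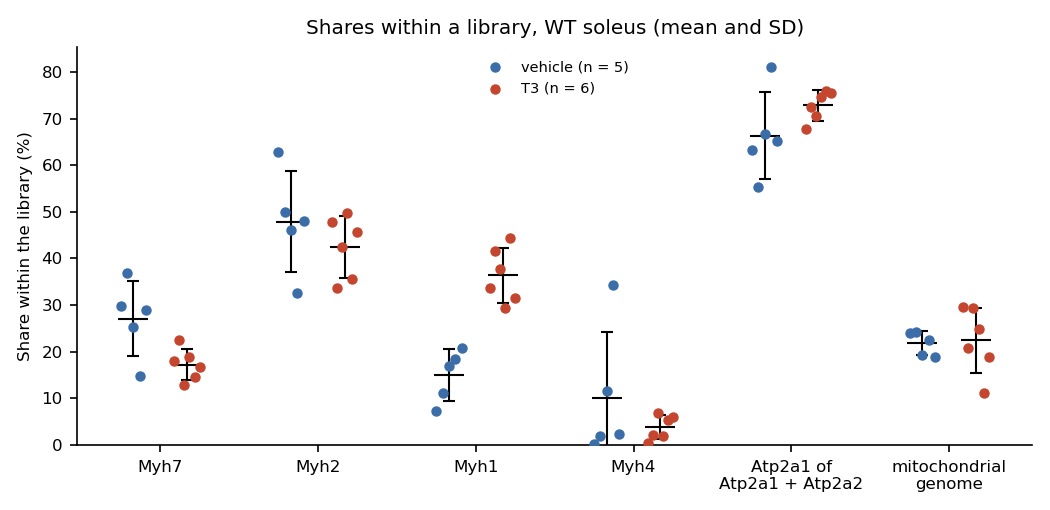
Shares within each WT library (vertical axis, percent): 4 myosin heavy chains of their length-scaled sum, Atp2a1 of both calcium pump genes, and the mitochondrial genome of all counts. Points are libraries, and bars are the mean and SD. The Myh1 share alone has no overlap between vehicle (blue, 7.22% to 20.9%) and T3 (red, 29.4% to 44.5%).

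Of 14 slow-fibre contractile genes 2 were called lower, Pln and Casq2, with 13 negative and a median log2 fold change of -0.36 against 0.01 for all genes. Myl2, the slow regulatory light chain, ranged from 2403 to 4873 CPM under vehicle and from 1439 to 3086 CPM with T3, and its log2 fold change was -0.66 ± 0.20 (adjusted p = 0.0644, edgeR). Of 15 fast-fibre genes 1 was called higher, Mylpf, the fast regulatory light chain. The median of the Fast fibre contractile genes was 0.14 in all libraries, -0.03 without WT T3 replicate 5, 0.00 without WT vehicle replicate 2 and 0.32 without WT vehicle replicate 4. Mylpf was at 1794, 1788, 1676, 2898 and 1436 CPM under vehicle and between 2783 and 4484 CPM (median 2981) with T3, where WT vehicle replicate 4 fell within the T3 range. Its log2 fold change was 0.75 ± 0.20 (adjusted p = 0.0356, edgeR), and Mylpf was not called without WT vehicle replicate 1, 2, 3 or 5 or WT T3 replicate 5 (adjusted p up to 0.108). Among 26 proteins of the M-band, Z-disc and giant filaments 3 were called lower: Myom2 and Myom1, which cross-link myosin at the M-band, and Ldb3, a Z-disc protein. Myom2 went from 1074, 725, 912, 1104 and 1097 CPM to between 436 and 500.1 CPM (median 464), without overlap, and fell by 1.07 ± 0.19 (adjusted p = 0.0016, edgeR). Myom1 and Ldb3 fell by 0.46 ± 0.13 and 0.41 ± 0.11, without overlap. Myom1 kept its call in 1 of the 11 leave-one-out fits, that without WT T3 replicate 2 (adjusted p up to 0.131 in the others), and Ldb3 kept its call in 1 of the 11 leave-one-out fits, that without WT vehicle replicate 4 (adjusted p up to 0.146 in the others).

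Enzymes that make or use NADPH, carbon dioxide and acetyl groups in muscle were among the genes with the smallest p. Idh2 (ENSMUSG00000030541, chr7:80094846-80115392, minus strand), the NADP-dependent isocitrate dehydrogenase of mitochondria, was at 2708, 2421, 2185, 1576 and 1933 CPM under vehicle and between 459.8 and 675 CPM (median 510) with T3. All T3 libraries were far below all vehicle libraries, and Idh2 fell by 2.02 ± 0.13 on the log2 scale (adjusted p = 1.16e-09, edgeR). Its cytosolic counterpart Idh1 moved the other way, from 29.3, 28.9, 26.8, 30.8 and 27.0 CPM to between 41.7 and 60.0 CPM (median 47.2), without overlap (log2 fold change 0.78 ± 0.13, adjusted p = 0.000677). Car2 (ENSMUSG00000027562, chr3:14886273-14900770, plus strand), a cytosolic carbonic anhydrase, was at 41.6, 46.3, 43.8, 40.8 and 48.8 CPM under vehicle and between 12.8 and 17.9 CPM (median 15.0) with T3. The vehicle libraries were tightly grouped, and Car2 fell by 1.54 ± 0.10 (adjusted p = 1.16e-09, edgeR). Car3, the abundant carbonic anhydrase of slow fibres, went from 3707, 4808, 5282, 2675 and 4075 CPM to between 1057 and 1745 CPM (median 1278), again without overlap, a fall of 1.63 ± 0.15 (adjusted p = 3.7e-07). Of 9 carbonic anhydrase genes Car14, a membrane form, was the other one called, with a fall of 0.62 ± 0.17. Car14 kept its call in 2 of the 11 leave-one-out fits, those without WT T3 replicate 3 or 6 (adjusted p up to 0.0979 in the others).

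Nqo1, the quinone reductase that is a standard NRF2 target, fell by 1.55 ± 0.13 on the log2 scale, from 72.6, 88.4, 64.2, 49.6 and 71.2 CPM to between 17.8 and 26.6 CPM (median 24.5), with separate groups (adjusted p = 9.83e-08, edgeR). Of 33 NRF2 and NADPH genes, however, 3 were called lower (Idh2, Nqo1 and Nnt) and Idh1 was called higher, and the median was 0.03 (-0.04 without the T3 libraries apart). Nnt, the mitochondrial transhydrogenase, had overlapping groups at low levels (0.678 to 2.52 CPM under vehicle, 0.318 to 1.06 with T3), and Nnt kept its call in 5 of the 11 leave-one-out fits, those without WT vehicle replicate 2, 3 or 4 or WT T3 replicate 2 or 6 (adjusted p up to 0.137 in the others). Acss1, a mitochondrial acetyl-CoA synthetase, went from 167, 177, 155, 101 and 186 CPM to between 36.8 and 58.9 CPM (median 53.7), without overlap, and fell by 1.64 ± 0.17 (adjusted p = 3.03e-06). Adhfe1, a mitochondrial hydroxyacid transhydrogenase, fell by 0.92 ± 0.09, from 34.0 to 43.1 CPM down to 18.9 to 23.1 CPM. Coq8a, needed for coenzyme Q synthesis and among the most abundant of the called genes, went from 3132, 3024, 3159, 2735 and 3294 CPM to between 1604 and 2093 CPM (median 1827). Its fall of 0.74 ± 0.11 was small in fold but left no overlap (adjusted p = 0.000295, edgeR).

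Of 30 fatty acid oxidation genes 4 were called lower (Acadm, Hadh, Echs1 and Acot2), where 1.59% of all genes were, and none higher. The log2 fold change was negative in 22 of 30, with a median of -0.24. Acadm (ENSMUSG00000062908, chr3:153922357-153944632, minus strand), the medium-chain acyl-CoA dehydrogenase, was at 1366, 1215, 1191, 1090 and 1053 CPM under vehicle and between 580.4 and 854 CPM (median 706) with T3, without overlap. It fell by 0.74 ± 0.11 (adjusted p = 0.000332, edgeR). Hadh, which acts after it in the cycle, fell by 0.49 ± 0.12 and Echs1, an enoyl-CoA hydratase, by 0.38 ± 0.10. Hadh was not called without WT vehicle replicate 1 (adjusted p of 0.0507), and Echs1 was not called without WT vehicle replicate 1, 2 or 5 or WT T3 replicate 1 or 4 (adjusted p up to 0.0765). The thioesterase gene Acot2 fell by 0.87 ± 0.23 and shares sequence with Acot1, so reads could be split between them. Acot2 kept its call in 2 of the 11 leave-one-out fits, those without WT T3 replicate 3 or 6 (adjusted p up to 0.0959 in the others). Cpt1b, which encodes the muscle gate for fatty acid entry into mitochondria, had -0.69 ± 0.21 (adjusted p = 0.0796, edgeR), with overlap. The list had 1 (without WT vehicle replicate 1) to 5 genes called lower over the leave-one-out fits, and 3 without the T3 libraries that lay apart.

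Around the citric acid cycle 4 of 33 genes were called lower, where 1.59% of all genes were, and none was called higher. Beside Idh2 they were the pyruvate dehydrogenase kinases Pdk2 and Pdk1, which switch that complex off, and Suclg2, a succinyl-CoA ligase subunit. Pdk2 went from 689.8, 590.2, 789, 774 and 549 CPM to between 399.6 and 498 CPM (median 432), without overlap, a fall of 0.63 ± 0.13 (adjusted p = 0.00561, edgeR). Pdk4, the kinase known to respond to fasting and T3, varied widely within both groups, from 1432 to 2632 CPM under vehicle and from 1490 to 3946 CPM with T3, and was not called (0.57 ± 0.39). Suclg2 was not called without WT vehicle replicate 1 (adjusted p of 0.0667), and Pdk1 kept its call in 5 of the 11 leave-one-out fits, those without WT vehicle replicate 4 or WT T3 replicate 1, 2, 5 or 6 (adjusted p up to 0.0899 in the others). Of 24 genes of branched-chain amino acid and creatine metabolism 4 were called lower and none higher: Mccc2 and Pccb, carboxylase subunits of leucine and propionate breakdown, Ppm1k, the phosphatase that activates branched-chain ketoacid dehydrogenase, and Aldh6a1. Their falls were small, 0.39 ± 0.07 for Mccc2, 0.40 ± 0.08 for Pccb, 0.61 ± 0.14 for Ppm1k and 0.54 ± 0.14 for Aldh6a1, and in all 4 the groups did not overlap. The same held for 344 of all 499 called genes and for 3.8% of all tested genes. The list's median was -0.17. Aldh6a1 kept its call in 4 of the 11 leave-one-out fits, those without WT T3 replicate 2, 3, 5 or 6 (adjusted p up to 0.0765 in the others), and Ppm1k was not called without WT vehicle replicate 5 (adjusted p of 0.064).

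Genes of lipid storage and glycogen synthesis changed singly. Lpin3 (ENSMUSG00000027412, chr2:160880670-160905997, plus strand), a phosphatidate phosphatase of triglyceride synthesis, was at 5.64, 5.06, 5.72, 6.14 and 5.94 CPM under vehicle and between 13.1 and 19.8 CPM (median 16.2) with T3. Both groups were narrow and separate, and the log2 fold change was 1.51 ± 0.13 (adjusted p = 9.83e-08, edgeR). G0s2, an inhibitor of the lipase ATGL, went from 39.9, 49.3, 28.7, 87.3 and 73.2 CPM to between 4.73 and 32.5 CPM (median 19.5) and fell by 1.49 ± 0.34, with overlap. Acaca, the acetyl-CoA carboxylase of fatty acid synthesis, fell by 0.75 ± 0.14, from 16.0 to 29.0 CPM down to 10.6 to 14.5 CPM. Of 24 genes of glycogen and glucose uptake 1 was called, Ugp2, which makes UDP-glucose, at 0.52 ± 0.13. Ugp2 was not called without WT vehicle replicate 1, 3 or 4 or WT T3 replicate 1 or 3 (adjusted p up to 0.0898). The glucose transporter gene Slc2a4 (GLUT4) had -0.07 ± 0.14.

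Respiratory chain genes of the nucleus had small positive medians, which were smaller without WT T3 replicate 5. Of 36 complex I subunits 35 were positive and none was called by edgeR, DESeq2 or limma voom (6 had an unadjusted p below 0.05). The median of Complex I nuclear subunits was 0.25, 0.03 without WT T3 replicate 5 and 0.06 without all T3 libraries that lay apart. Their summed level was 7450 to 9269 CPM under vehicle and 7618 to 16220 CPM with T3, where WT T3 replicate 5 was highest. In complexes III and IV with cytochrome c, 2 of 26 were called higher, Cox7a1, the muscle isoform of a cytochrome oxidase subunit, and Cycs, cytochrome c. Cox7a1 was at 301, 249, 163, 279.5 and 245 CPM under vehicle and between 299 and 1086 CPM (median 434) with T3, the highest again in WT T3 replicate 5, and its adjusted p was 0.0161 with and 0.0582 without the libraries apart (edgeR). Cox7a1 was not called without WT vehicle replicate 3 (adjusted p of 0.0624), and Cycs kept its call in 5 of the 11 leave-one-out fits, those without WT vehicle replicate 1 or 4 or WT T3 replicate 2, 4 or 6 (adjusted p up to 0.111 in the others). ATP synthase nuclear subunits had 0 of 17 called by edgeR (3 at an unadjusted p below 0.05, 0 by DESeq2), with medians of 0.27 in all libraries and 0.02 without WT T3 replicate 5. Messenger RNAs of the mitochondrial genome had 0 of 11 called by edgeR (2 at an unadjusted p below 0.05, 0 by DESeq2). All annotated genes of that genome together took 21.8% ± 2.56 (SD, n = 5) of all counts under vehicle and 22.4% ± 6.98 (SD, n = 6) with T3. The exact permutation p of that difference was 0.875.

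Of 23 tested genes known to be induced by interferon, 8 were called higher and none lower, where 1.72% of all genes were called higher, and the log2 fold change was positive in all 23. These 8 were Ifi44, Mx2, Ifit1, Rsad2, Gbp3, Ifit3, Ifit2 and Isg15, products of which restrict viruses or, for Isg15, tag proteins in a ubiquitin-like way. The median log2 fold change of the list was 0.84, against 0.01 for all genes. As this list too was chosen with earlier results of these data known, its excess of calls is no independent test. Interferons act through a receptor and a transcription factor complex that binds an element built of TTTC repeats in the promoters of such genes. Stretches that match that element upstream of 5 of the 8 called genes are printed because these 5 share the match.

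In RefSeq promoter windows of 250 bases before to 50 after each start (GRCm38.p6), the letters TTTCNNTTTC were searched on both strands. The stretches below run 5′ to 3′ on each gene's own strand, with matches in capitals and 20 bases on each side. Their places are chr19:34640765-34640833 on the plus strand for Ifit1, chr19:34583353-34583436 on the plus strand for Ifit3, chr12:26456543-26456592 on the minus strand for Rsad2, chr3:142559979-142560034 on the plus strand for Gbp3 and chr4:156200855-156200916 on the minus strand for Isg15. All lie before the RefSeq start, the nearest match (Gbp3) ending 30 bases before it.
Ifit1: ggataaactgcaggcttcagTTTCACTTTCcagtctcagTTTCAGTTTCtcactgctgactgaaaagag
Ifit3: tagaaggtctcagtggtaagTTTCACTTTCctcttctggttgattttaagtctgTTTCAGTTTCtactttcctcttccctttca
Rsad2: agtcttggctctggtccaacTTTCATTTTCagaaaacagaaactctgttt
Gbp3: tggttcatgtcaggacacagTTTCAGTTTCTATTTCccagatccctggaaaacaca
Isg15: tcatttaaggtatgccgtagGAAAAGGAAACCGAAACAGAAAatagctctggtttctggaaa

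Ifit1 and Ifit3 each held 2 matches, Rsad2 held 1, Gbp3 held 2 that overlap, before 1 of its 2 RefSeq starts, and Isg15 held 3 that overlap, on the opposite strand, so that they are printed as the reverse complement. Ifit2 and Ifi44 held none in their windows, and Mx2 had no window in the table. Such a match was present in 3.99% of 27025 genes with a window and in 3.73% of 10976 tested genes. It stood in 7.81% of the 192 genes called higher that had a window, of 259, and in 1.7% of the 176 called lower, of 240. Those called higher include members of the interferon list. Of the 19 tested members of that list with a window, called or not, 11 held a match (57.9%), and 5 of the 7 called ones did. In comparison, the half-site AGGTCA, to which thyroid hormone receptors bind, was found in 15.2% of tested genes, 16.7% of those called higher and 15.9% of those called lower. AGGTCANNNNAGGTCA, the direct repeat of that half-site, was in 1 of 10976 tested genes (0.00911%) and in no called gene with a window. With so few matches in all, its absence from the called genes carries no information. Hr, Sln, Car2, Car3 and Mettl21c had no window, so these shares do not cover them. A match describes letters in a window and is not evidence of binding.

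Ifi44 (ENSMUSG00000028037, chr3:151730922-151749960, minus strand) had the smallest p of the list, at 0.668, 0.653, 0.745, 1.32 and 0.759 CPM under vehicle and between 2.57 and 4.95 CPM (median 3.24) with T3. No library crossed, and the log2 fold change was 2.02 ± 0.32 (adjusted p = 0.000505, edgeR). Ifit1 was at 1.89, 2.65, 2.85, 4.02 and 2.06 CPM under vehicle and between 4.09 and 9.56 CPM (median 7.71) with T3, and its groups were separate by a narrow margin (log2 fold change 1.43 ± 0.30, adjusted p = 0.00681). Rsad2, viperin, was at 6.39, 7.87, 11.0, 9.31 and 7.33 CPM under vehicle and between 12.7 and 22.3 CPM (median 15.6) with T3, also without overlap. It rose by 0.97 ± 0.24 (adjusted p = 0.0209, edgeR). Isg15, at 0.668, 0.775, 0.813, 1.75 and 1.07 CPM under vehicle and between 1.88 and 6.77 CPM (median 2.59) with T3, had its highest value in WT T3 replicate 5. Mx2, Gbp3, Ifit3 and Ifit2 had log2 fold changes of 1.66 ± 0.33, 1.16 ± 0.28, 1.18 ± 0.29 and 0.76 ± 0.19, and in each of the 8 genes all T3 libraries exceeded all vehicle libraries. Rsad2 was not called without WT vehicle replicate 1, 2 or 5 (adjusted p up to 0.0649), and leaving out any of the same 3 libraries ended the calls of Gbp3 (up to 0.0712) and Ifit3 (up to 0.0789). Ifit2 kept its call in 5 of the 11 leave-one-out fits, those without WT vehicle replicate 4 or WT T3 replicate 2, 4, 5 or 6 (adjusted p up to 0.0812 in the others), and Isg15 kept its call in 3 of the 11 leave-one-out fits, those without WT vehicle replicate 4 or WT T3 replicate 1 or 4 (adjusted p up to 0.126 in the others). Ifit and Gbp genes have close paralogs, between which reads could be split.

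Upstream factors of the interferon response were positive but not called: Stat2 at 0.44 ± 0.16, Irf9 at 0.46 ± 0.16 and Irf7 at 1.01 ± 0.34 (adjusted p = 0.107, edgeR). Of further interferon-type genes outside the list, named after their values were seen, Oas2 rose from 1.34, 1.55, 1.97, 3.35 and 1.52 CPM to between 3.90 and 5.56 CPM (median 5.00) (1.32 ± 0.25, adjusted p = 0.00267). Ifi35 rose by 1.05 ± 0.19 and Slfn5 by 0.60 ± 0.12, both without overlap. Zbp1, Xaf1, Herc6, Phf11d and Apol9b were called higher too, with log2 fold changes of 1.93 ± 0.48, 1.27 ± 0.35, 0.88 ± 0.22, 1.00 ± 0.25 and 2.36 ± 0.50.

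The summed level of the 23 listed genes was 187 to 260.3 CPM in vehicle and 285 to 526 CPM in T3 libraries, so that the groups were separate, with WT T3 replicate 5 highest. Without the T3 libraries that lay apart, 3 of 23 were called and the median was 0.60, and with an offset for GC content and length 10 were called. Leaving out 1 library gave 3 called genes without WT vehicle replicate 1, 2 or 5, and 11 without WT vehicle replicate 4. Macrophage markers were positive in 10 of 10 and called in 0 by edgeR (4 at an unadjusted p below 0.05, 0 by DESeq2), with summed levels of 47.8 to 68.9 CPM and 62.3 to 178 CPM (highest in WT T3 replicate 5). Of 8 T cell markers only Cd247 passed the filter on low counts. The part of such cells in the interferon genes was not tested. In the KO libraries the same 23 genes had a median log2 fold change of 0.52, 3 were called higher, and the difference between genotypes was called in 0 by edgeR (1 at an unadjusted p below 0.05) and in 0 by DESeq2.

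**Figure D4:**
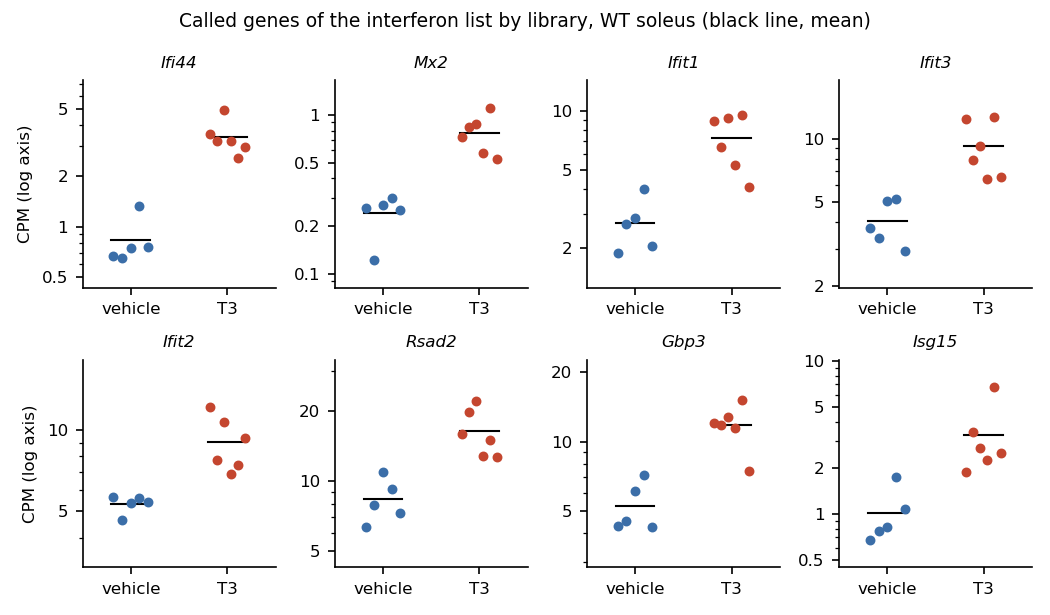
Level of the 8 called genes of the interferon list in each WT library (CPM, log axis; blue, vehicle; red, T3; black line, mean). In every panel the lowest T3 library lies above the highest vehicle library, and Isg15 has its top value, 6.77 CPM, in WT T3 replicate 5.

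Genes of muscle protein breakdown had 4 of 24 called higher (Trim63, Foxo1, Mdm2 and Ctsl) and 1 lower (Fbxo21), where 1.72% and 1.59% of all genes were. Trim63, which encodes the ubiquitin ligase MuRF1, was at 127, 125, 122, 162 and 134 CPM under vehicle and between 214 and 379 CPM (median 300) with T3. No library crossed, and it rose by 1.16 ± 0.21 (adjusted p = 0.002, edgeR). Fbxo32, the other classic atrophy ligase (atrogin-1), had 0.02 ± 0.16 and was not called. Foxo1, a transcription factor of that programme, rose by 0.70 ± 0.16, from 28.2 to 45.3 CPM to 42.0 to 75.8 CPM with overlap, and Foxo1 was not called without WT vehicle replicate 1 (adjusted p of 0.0667). Ctsl, a lysosomal protease, and Becn1, an autophagy initiator, were the 2 called genes of 25 in autophagy and lysosome, at 0.46 ± 0.12 and 0.33 ± 0.08. Ctsl was not called without WT vehicle replicate 2, 3, 4 or 5 (adjusted p up to 0.0887), and Becn1 was not called without WT vehicle replicate 3 or WT T3 replicate 1 (adjusted p up to 0.0834). Mdm2, the ubiquitin ligase of p53, rose by 0.35 ± 0.08, and Mdm2 was not called without WT vehicle replicate 1 or 3 (adjusted p up to 0.0551). Fbxo21 was not called without WT vehicle replicate 3 or 5 or WT T3 replicate 4 (adjusted p up to 0.0924). The median of the breakdown list was 0.25, it was 0.07 without WT T3 replicate 5, and 3 members were called higher without the T3 libraries that lay apart, 1 on the WT libraries only and 2 with no filter on low counts or without WT vehicle replicate 1 or 3. Of 31 proteasome subunits 0 were called by edgeR (2 at an unadjusted p below 0.05) and 0 by DESeq2, with a median of 0.13 in all libraries and -0.08 when the T3 libraries apart were left out. Their summed level was 5794 CPM in WT T3 replicate 5, 3468 to 4055 CPM in the other T3 libraries and 3694 to 4078 CPM under vehicle.

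A pair of related muscle lysine methyltransferase genes on chromosome 1 moved in opposite directions. Mettl21c (ENSMUSG00000047343, chr1:44009408-44020006, minus strand) was at 90.5, 117, 85.5, 32.2 and 78.5 CPM under vehicle and between 0.880 and 7.64 CPM (median 3.33) with T3. It fell by 4.38 ± 0.44 on the log2 scale (adjusted p = 1.01e-06, edgeR). Mettl21e (ENSMUSG00000046828, chr1:44204070-44218961, minus strand) was low under vehicle, at 0.334, 0.571, 0.237, 2.30 and 1.14 CPM, and between 4.44 and 12.6 CPM (median 5.06) with T3, and the log2 fold change was 2.78 ± 0.46 (adjusted p = 0.000885). Neither gene had overlapping groups, and in both WT vehicle replicate 4 was the vehicle library nearest to the T3 range. These were the 2 called of 12 tested members of the list.

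At the neuromuscular junction 1 of 19 genes was called higher and 2 lower. Colq, the collagen tail that anchors acetylcholinesterase, went from 25.4, 29.4, 29.5, 24.2 and 24.5 CPM to between 6.63 and 17.3 CPM (median 10.3), without overlap, and fell by 1.20 ± 0.22 (adjusted p = 0.00214, edgeR). Of the acetylcholine receptor subunits, Chrna1 fell by 0.42 ± 0.11 and Chrnb1 rose by 0.68 ± 0.16, both without overlap. Chrna1 kept its call in 4 of the 11 leave-one-out fits, those without WT vehicle replicate 4 or WT T3 replicate 2, 3 or 5 (adjusted p up to 0.0997 in the others), and Chrnb1 was not called without WT vehicle replicate 3 or 5 (adjusted p up to 0.064). Lynx1, a modulator of nicotinic receptors outside the list, was among the most abundant called genes, at 580.5, 591, 611, 556 and 549.8 CPM under vehicle and between 734 and 931 CPM (median 874) with T3 (0.57 ± 0.13, adjusted p = 0.0139). Among 22 sarcolemmal pumps and channels Kcne1l, a small regulatory subunit of potassium channels, fell by 2.22 ± 0.43 (adjusted p = 0.00354, edgeR), from 1.14 to 1.89 CPM under vehicle to 0.0821 to 0.594 CPM with T3.

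Clock genes had 2 of 21 called lower, where 1.59% of all genes were, and none higher, with 17 negative and a median of -0.27. Cry2, a repressor of the clock, was at 81.2, 84.6, 94.2, 70.5 and 93.0 CPM under vehicle and between 41.5 and 54.4 CPM (median 51.0) with T3, without overlap, and fell by 0.79 ± 0.10 (adjusted p = 1.54e-05, edgeR). Genes that swing most over the day were not called: Arntl had -0.56 ± 0.42, Dbp 0.06 ± 0.35 and Nr1d1 -0.15 ± 0.21. The labels give no time of day for the sampling.

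Among secreted factors, Apln, the peptide apelin, rose and Ostn, osteocrin, fell, the 2 called of 17. Apln was at 1.11, 2.00, 0.949, 0.999 and 1.07 CPM under vehicle and between 4.38 and 6.08 CPM (median 5.00) with T3 (2.08 ± 0.25, adjusted p = 1.24e-05, edgeR). Ostn was at 62.5, 94.5, 49.6, 57.8 and 63.7 CPM and between 26.9 and 39.6 CPM (median 34.8) (-0.96 ± 0.15, adjusted p = 0.000534). Neither overlapped. Mstn, myostatin, had -1.71 ± 0.61 and was not called (adjusted p = 0.132); WT vehicle replicate 4 held 12.9 CPM and the next vehicle library 3.02. Of 20 Wnt pathway genes Dkk2, a secreted inhibitor, fell by 1.65 ± 0.23, from 88.0 to 142 CPM down to 19.6 to 52.3 CPM, and the receptor gene Fzd4 rose by 0.69 ± 0.17. Fzd4 was not called without WT vehicle replicate 1, 2, 3 or 5 (adjusted p up to 0.0688). Dkk3 was called lower, but not without WT vehicle replicate 4 (adjusted p = 0.0955, edgeR), which held 9.76 CPM against a range of 0.891 to 3.83 in the other vehicle libraries.

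Collagens and matrix enzymes were positive in 25 of 28 with a median of 0.31 (0.18 without the T3 libraries apart), but Adamts8, a secreted metalloprotease, was the 1 gene called by edgeR. Adamts8 was at 3.79, 5.43, 6.10, 7.49 and 3.86 CPM under vehicle and between 8.17 and 50.1 CPM (median 14.8) with T3, a rise of 2.15 ± 0.39 with the top values in WT T3 replicates 4 and 2. Fibroblast markers had 0 of 9 called by edgeR (3 at an unadjusted p below 0.05, 1 by DESeq2) and 8 positive, with summed levels of 588 to 879 CPM under vehicle and 629.7 to 1783 CPM with T3, highest in WT T3 replicate 5. That these cells differed in number between the groups was not tested.

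Other genes called higher were of mixed function. Syt12 (ENSMUSG00000049303, chr19:4445908-4477447, minus strand) was at 1.45, 1.47, 0.949, 2.32 and 2.85 CPM under vehicle and between 9.80 and 16.2 CPM (median 12.1) with T3, and the log2 fold change was 2.78 ± 0.31 (adjusted p = 6.44e-06, edgeR). Foxo6os (ENSMUSG00000084929, chr4:120291350-120303892, plus strand), an antisense transcript at Foxo6, was at 26.0, 26.3, 18.5, 37.4 and 25.4 CPM and between 113 and 168 CPM (median 140.2), a rise of 2.40 ± 0.25 (adjusted p = 2.67e-06). Foxo6 on the other strand was not called (0.60 ± 0.39). All T3 libraries stood above all vehicle libraries for both Syt12 and Foxo6os. The zinc transporter gene Slc30a2 rose by 1.39 ± 0.17, Tlcd2 by 2.10 ± 0.27, Sctr, the secretin receptor, by 2.10 ± 0.29, Nudt18 by 1.48 ± 0.20 and Tmem229b by 1.27 ± 0.15, all without overlap. Arc, an immediate early gene of neurons, rose by 2.66 ± 0.46 from 2.75, 0.979, 0.915, 4.29 and 1.14 CPM to between 5.67 and 29.3 CPM (median 10.1). Of 23 immediate early genes Maff was the other one called, at 0.75 ± 0.18, and the median of the Immediate early genes was -0.09, -0.23 without WT T3 replicate 5 and 0.18 without WT vehicle replicate 1. Maff was not called without WT vehicle replicate 3 or 5 (adjusted p up to 0.0765). Ighm, the immunoglobulin heavy chain of B cells, ranged from 2.41 to 29.1 CPM under vehicle and from 11.8 to 188 CPM with T3, the highest values being in WT vehicle replicate 4 and WT T3 replicate 5. The log2 fold change was 3.02 ± 0.66 (adjusted p = 0.0103, edgeR), and the B cell markers Ms4a1, Cd79a and Cd79b did not pass the filter on low counts. Of the 3 tested B and plasma cell markers, Ighm was called and Igkc and Mzb1 were not. Their log2 fold changes were positive in 2 and negative in 1, with a median of 0.08 (-0.24 without the T3 libraries that lay apart).

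Stress and mitochondrial housekeeping genes changed singly. Mthfd2, an enzyme of mitochondrial folate metabolism, was the 1 called of 22 genes of the unfolded protein and integrated stress response, going from 7.84, 8.40, 7.62, 7.21 and 8.47 CPM to between 9.31 and 13.1 CPM (median 12.3) (0.61 ± 0.13, adjusted p = 0.0114, edgeR). The groups were separate, and WT T3 replicate 6 was the lowest treated library. Of 25 heat shock genes and chaperones Hsph1 was called higher (0.75 ± 0.18) and Hspa1b lower (-1.08 ± 0.30), and the latter has a near-identical neighbour, Hspa1a, with which reads could be split. Slc25a33, a mitochondrial pyrimidine carrier gene, rose by 1.09 ± 0.27, while Slc25a42, a coenzyme A carrier gene, fell by 0.53 ± 0.14. Of 28 regulators of mitochondrial biogenesis Esrrb, an orphan nuclear receptor gene, was the 1 called lower, at -0.45 ± 0.12, and Ppargc1a, the coactivator PGC-1alpha, had -0.15 ± 0.24 (adjusted p = 0.809). Hsph1 was not called without WT vehicle replicate 3 or 5 (adjusted p up to 0.0638). Hspa1b kept its call in 3 of the 11 leave-one-out fits, those without WT vehicle replicate 4 or WT T3 replicate 5 or 6 (adjusted p up to 0.187 in the others). Slc25a33 was not called without WT vehicle replicate 1, 2 or 3 (adjusted p up to 0.073). Slc25a42 kept its call in 3 of the 11 leave-one-out fits, those without WT vehicle replicate 2 or WT T3 replicate 3 or 6 (adjusted p up to 0.118 in the others). Esrrb kept its call in 2 of the 11 leave-one-out fits, those without WT vehicle replicate 4 or WT T3 replicate 2 (adjusted p up to 0.151 in the others).

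Markers of other cell types were called in few cases. Schwann cell and myelin genes were negative in 9 of 9, and 2 were called lower, Sox10 and Mbp. Their summed level was 87.1 to 417 CPM under vehicle and 59.2 to 83.6 CPM with T3, and Mbp was at 30.9, 24.2, 127, 34.8 and 22.7 CPM under vehicle. Mbp kept its call in 3 of the 11 leave-one-out fits, those without WT vehicle replicate 2, 4 or 5 (adjusted p up to 0.349 in the others), and Sox10 was not called without WT vehicle replicate 3 or WT T3 replicate 1, 3 or 4 (adjusted p up to 0.157). Erythroid genes were positive in 7 of 7 and 0 were called by edgeR (3 at an unadjusted p below 0.05, 0 by DESeq2), with summed levels of 44.0 to 70.2 and 78.5 to 334 CPM. Endothelial (0 of 10), pericyte and smooth muscle (0 of 9), tendon (0 of 7) and satellite cell (0 of 6) markers had no call by edgeR, with medians of 0.06, -0.39, 0.52 and -0.36. When the T3 libraries apart were left out these medians were 0.13, -0.19, 0.23 and -0.38, and that of Tendon cells was 0.01 without WT T3 replicate 5. At an unadjusted p below 0.05 were 0, 4, 1 and 2 of them, and DESeq2 called 0, 0, 0 and 1. Of 7 fat cell markers Cidea was called lower (-0.68 ± 0.16), and Cidea was not called without WT vehicle replicate 1 or 3 (adjusted p up to 0.0646). The part of any of these cell types in the changes above was not tested.

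**Figure D5:**
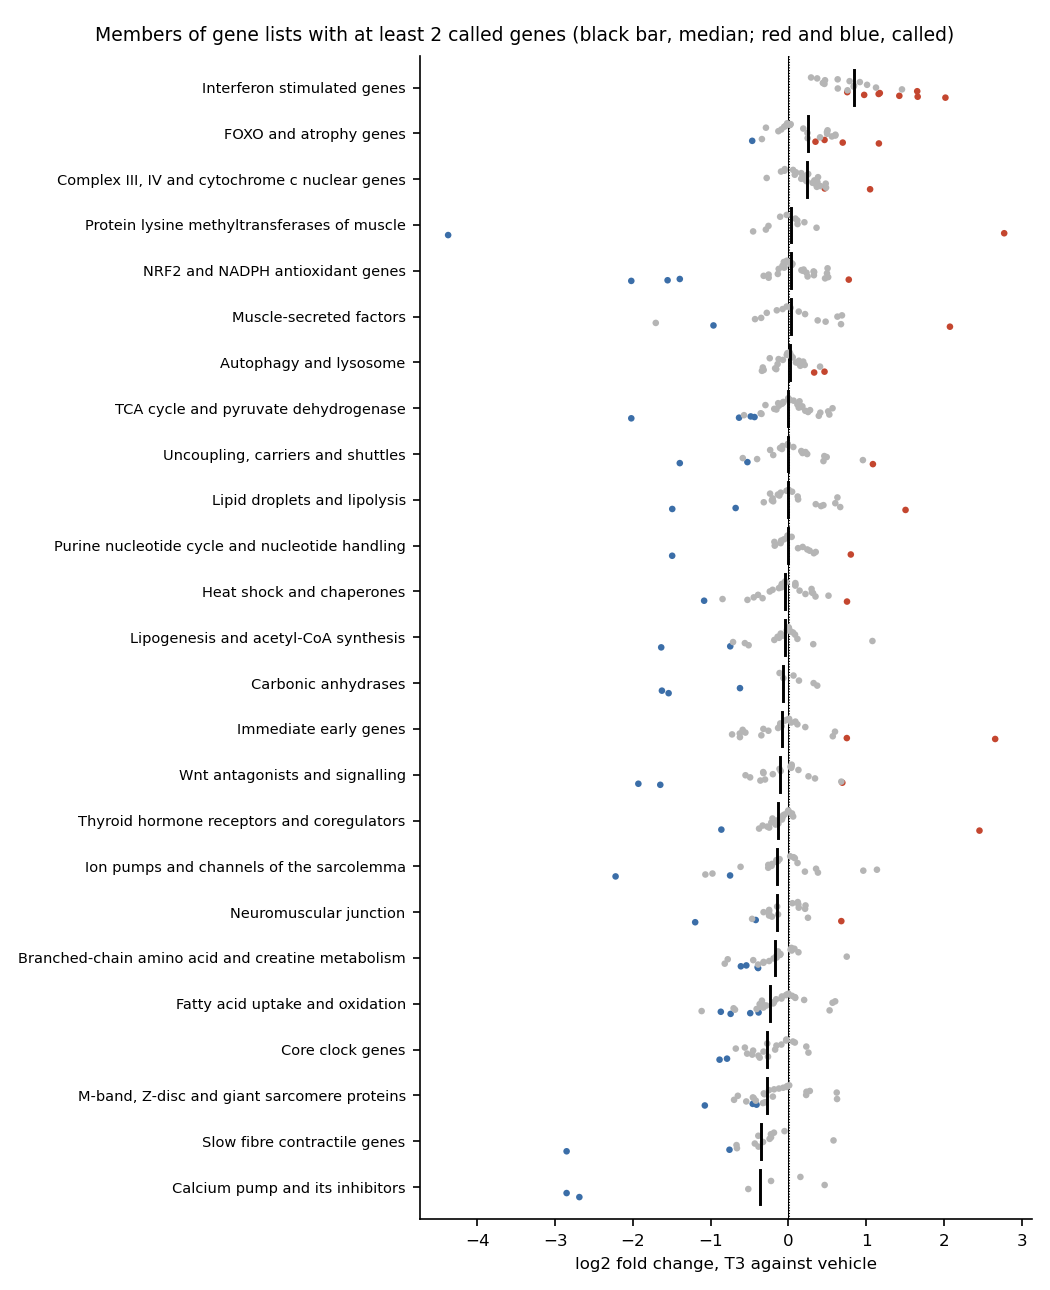
Log2 fold change of each tested member (horizontal axis) for gene lists with at least 2 called genes. Red and blue points are called higher and lower, grey points are not called, black bars are medians, and the dotted line is the median of all genes. The interferon list stands at 0.84 with all members to the right of 0, and the slow-fibre list at -0.36 with 1 member to the right.

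In the TRa1 KO libraries, whose vehicle and T3 groups are separate samples, 493 of the 499 genes called in WT had the same sign and 215 were called as well. Of all 15082 tested genes 410 were called for T3 in KO. How many of all tested genes had the same sign in both genotypes was not counted. The difference between the T3 responses of both genotypes was called for 1 of 15082 genes (0.00663%), Foxo6os, which rose by 4.85 ± 0.33 in KO against 2.40 ± 0.25 in WT. At an unadjusted p below 0.05 there were 371 such genes, and DESeq2 called 3 and limma voom 1. Among the genes above, Lpin3 had 2.19 ± 0.14 in KO, Hr 3.16 ± 0.44, Sln -2.46 ± 0.32, Idh2 -1.20 ± 0.13, Mettl21c -1.85 ± 0.39, Car2 -1.46 ± 0.10 and Trim63 0.95 ± 0.22. None of these 7 passed the test of the difference (adjusted p of 0.488 or more, edgeR), which does not show that the responses were equal.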

How the data were processed

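Poly-A RNA of soleus was sequenced in 22 libraries, and per the submitters' processing notes STAR 2.7.3a, featureCounts 1.6.4, edgeR 3.26.8 and build mm10 were used. The annotation release is not given in the sources used here, nor is the strand setting. In the deposited table are the authors' raw counts per gene, with gene lengths. Groups were taken from the labels for genotype and treatment. Of 55487 genes, filterByExpr of edgeR 4.0.16 (R 4.3.3, minimum count 10) kept 15082 with at least 99.94% of each library's counts.

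All 22 libraries were fitted as 4 groups with TMM scaling and edgeR's quasi-likelihood test, without covariates, and adjusted over all 15082 genes by Benjamini and Hochberg. CPM values use TMM-scaled library sizes. Genes were called at an adjusted p below 0.05. Shares were compared by two-sided exact permutation tests over the WT libraries.

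Named genes were the 20 largest increases and decreases among called genes of at least 5 CPM that are not unnamed gene models, the 10 smallest p in each direction, the 10 most abundant called genes, called members of 43 pathway and 14 marker lists (or the 3 most abundant members of a list with no call) and 30 followed genes. The members and lists were chosen with earlier results of these data known.

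Alternatives were other scalings (RLE, upper quartile, total counts), other filters, DESeq2 1.42.0, limma 3.58.1 voom with and without quality weights, an offset for GC content and length, fits on WT libraries only, without 5 T3 libraries that lay apart (WT T3 replicates 1, 3 and 5; KO T3 replicates 2 and 3) and without each WT library. No 2 WT libraries agreed within sampling noise, and pairs with KO libraries were not compared. Steps were tested on simulated data. Some genes are not reported here. Promoter sequences are RefSeq's on GRCm38.p6, matched by symbol for 10976 tested genes. Gene coordinates are those of the deposited table, on mm10. Figures used matplotlib 3.10.9.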

Additional observations from a re-analysis of the deposited data

Results flagged for a closer look

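In each of 218 groups of values, made of the called genes named by rule and the 6 shares in the vehicle or the T3 libraries, the distance of the farthest library from its nearest neighbour was compared with the range. In 29 of them (13.3%) 1 library stood apart by Dixon's criterion at the 95% level. That level means about 5% for independent, normally distributed values. Here CPM were taken without a log and the groups share the same libraries, so 13.3% is not a test of an excess. WT T3 replicate 5 was the high library for Sctr (32.1 CPM), Ptges3l (90.1 CPM), Pln (1.68 CPM), Mettl21e (12.6 CPM), Tmem37 (44.6 CPM), Pccb (98.0 CPM), Cox7a1 (1086 CPM), Slc25a33 (57.0 CPM), Ctsl (235 CPM), Mylpf (4484 CPM) and Isg15 (6.77 CPM), and the low one for Aldh6a1 (85.9 CPM) and Esrrb (35.8 CPM). This library also lay apart on the first principal component and had the lowest mitochondrial share. WT vehicle replicate 4 was high for Hr (59.7 CPM), Ifi44 (1.32 CPM), Klhl33 (165 CPM), Ighm (29.1 CPM), Igfbp5 (342 CPM), Ociad2 (23.1 CPM) and Mylpf (2898 CPM). For Hr, Ifi44, Klhl33, Ighm, Igfbp5 and Mylpf its high value lay on the side of the T3 libraries, whereas for Ociad2 it lay on the far side. WT vehicle replicate 2 was high for Apln (2.00 CPM), Chrna1 (73.6 CPM) and Rbp7 (5.67 CPM) and low for Mx2 (0.122 CPM) and Ifit2 (4.65 CPM). WT vehicle replicate 3 was high for Mbp (127 CPM) and low for Becn1 (42.1 CPM). WT vehicle replicate 1 was low for Nt5e (0.854 CPM), and WT T3 replicate 6 for Mthfd2 (9.31 CPM). What sets these libraries apart was not tested.

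The T3 response of Foxo6os differed between the genotypes, by 2.44 ± 0.37 on the log2 scale (KO minus WT, adjusted p = 0.0163, edgeR's quasi-likelihood test). Its level was 0.357 to 2.50 CPM in KO vehicle and 33.7 to 68.7 CPM in KO T3 libraries, against 18.5 to 37.4 and 113 to 168 CPM in WT. The difference was not called without WT vehicle replicate 4 or without WT T3 replicate 2.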

How the results depend on the processing

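The number of genes called for T3 in WT was 499, and stayed within 1.5 times of that with RLE (487), upper quartile (496) or total count scaling (425), without a filter (353), with a stricter one (497), with limma voom (476) and without the libraries apart (446). DESeq2 called 841, and the number was 767 with limma voom and quality weights and 766 with an offset for GC content and length. On the WT libraries only it was 291, with fewer samples to estimate the spread and 14073 genes tested. The cause of these differences was not tested. Leaving out 1 library gave 284 to 563. The difference of responses was called for 3 genes by DESeq2, 2 with no filter, 2 with quality weights, 2 with the offset, 0 by edgeR without the libraries apart (616 at an unadjusted p below 0.05), and 0 to 1 with 1 library left out. No called gene changed its direction under any of these settings, and 168 were called in all. Of 106 named called genes 56 stayed called without each library, 74 without the libraries apart and 99 with the offset. Differences of shares over the fits without 1 library ran from 19.58 to 22.99 points for Myh1, -12.93 to -7.418 for Myh7, -9.266 to -1.672 for Myh2, -8.719 to -0.1852 for Myh4, 3.731 to 10.18 for Atp2a1 and -0.7854 to 2.87 for the mitochondrial genome, which changed sign without WT vehicle replicate 5 (-0.1022), WT T3 replicate 1 or WT T3 replicate 3 (-0.7551), and without WT T3 replicates 1, 3 and 5 (-0.2975). With 1 vehicle library left out, an adjusted exact p of 0.0571 is what separate groups may give when other shares do not reach as low a p, and this was found for Myh1 without WT vehicle replicates 1, 2, 3 or 5. Without WT T3 replicates 1, 3 and 5 the Myh1 difference was 19.29 points (adjusted exact p = 0.214). The groups were still separate there, and 0.214 is likewise what so few libraries give when other shares do not reach as low a p. Depth limits genes of low level such as Mx2, which had 3 to 12 counts in each vehicle library and 8 to 35 in each T3 library.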

Other observations

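Several of the largest changes fell outside the rule for named genes, and the following were chosen after their values were seen. B930025P03Rik, an unnamed gene model, was almost undetected under vehicle, at 0.0371, 0.0408, 0.102, 0.250 and 0.127 CPM, and between 10.3 and 13.6 CPM (median 12.9) with T3 (19 against 2259 counts per group, 6.62 ± 0.46 on the log2 scale, adjusted p = 2.67e-09, edgeR). Spata33 rose from 0.706, 0.979, 0.983, 0.974 and 1.42 CPM to between 6.25 and 11.9 CPM (median 6.77) (2.90 ± 0.23, adjusted p = 2.47e-08), and Ttbk1, a tau tubulin kinase gene, from 19 counts over the vehicle libraries to 837 over the T3 libraries (5.21 ± 0.78). In the other direction, Slc22a2, an organic cation transporter gene, fell from 7.54, 11.6, 7.08, 2.00 and 7.11 CPM to between 0.232 and 1.06 CPM (median 0.429) (-3.91 ± 0.42, adjusted p = 3.08e-06). Ttc25 fell by 3.08 ± 0.47 and Camk1g, a calcium/calmodulin-dependent kinase gene, by 2.49 ± 0.29. All T3 libraries were beyond all vehicle libraries for these 6 genes, and each was called in the 11 fits that left out 1 WT library.

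Fkbp5, a co-chaperone of steroid receptors also chosen after its values were seen, rose by 0.91 ± 0.23 (adjusted p = 0.0292, edgeR), from 23.2 to 56.3 CPM under vehicle to 47.0 to 104 CPM with T3, with overlap. Over the 499 called genes, the vehicle library nearest to the T3 side was WT vehicle replicate 4 in 236 genes, and replicates 1, 2, 3 and 5 in 60, 71, 49 and 83. The T3 library farthest from the vehicle side was WT T3 replicate 5 in 213, and the other T3 libraries in 43 to 73 each.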
